A study of Mus musculus with 4 samples.

Results

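The genes described here are 10 G protein-coupled receptors of pancreatic islets, Glp1r, Gipr, Gcgr, Gpr119, Ffar1, Chrm3, Adra2a, Galr1, Sstr3 and Gprc5b. They were taken by name, as every probe whose gene name in the scanner files is one of these symbols. This gave 12 probes, 2 each for Glp1r and Gprc5b and 1 for every other receptor, among 55681 probes that carry 22328 genes with an established symbol. The RNA came from islets of C57BL/6 mice at 24 weeks of age, and each of 4 groups was hybridised to 1 Agilent array with a single dye. The male WT array holds wild-type males, and the male Tg array holds transgenic males whose label adds that they were diabetic. The male Tg E2 array holds transgenic males 6 weeks after implantation of E2, as estradiol is commonly abbreviated. The female Tg array holds transgenic females. The labels name neither the transgene nor the promoter that drives it, and they do not say how many mice an array stands for. No array is labelled as a wild-type female or as a transgenic male with a sham implant, so female Tg differs from male WT in both sex and genotype.

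G protein-coupled receptors pass a signal across the cell membrane to a G protein, whose alpha subunit sets the response. Receptors that couple to Gs raise cAMP and those that couple to Gq raise cytosolic calcium through phospholipase C, and both strengthen glucose-stimulated insulin secretion in beta cells. Receptors that couple to Gi lower cAMP and restrain hormone release. The gut hormones GLP-1 and GIP, which make up the incretin signal, act on islets through the products of Glp1r and Gipr, and drugs for type 2 diabetes use that route.

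There is 1 array per group, so each difference below is one between single arrays, no p-value is given, and no variation between mice is known. A level is the log2 of a probe's processed intensity minus the array's 75th percentile over the non-control probes. The percentile was 365 on male WT, 202 on male Tg, 299 on male Tg E2 and 261 on female Tg in units of intensity, and between 49.9% and 54.8% of spots were well above background by the scanner software's call. A value after ± is the standard error from the software's error model for a difference of 2 arrays, and covers the measurement only. Levels on different arrays are called apart when they differ by more than 1.96 such errors, neighbours are arrays next to each other when sorted by a probe's level, and a gene is counted as higher or lower at 2-fold. Of the islet hormone genes, Ins1, Ins2, Gcg and Sst were well above background on every array. Xist was so only on female Tg, and the Y-linked genes Ddx3y and Eif2s3y only on the 3 male arrays, as the labels require.

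The sequences of the probes for Glp1r and Ffar1 are shown because the Glp1r result rests on 2 overlapping probes and the Ffar1 result on 1 dim probe. They are 60 bases long, from the array's design, written 5′ to 3′. Capitals in the Glp1r probes mark the bases at which they differ within their overlap.
Glp1r, first probe: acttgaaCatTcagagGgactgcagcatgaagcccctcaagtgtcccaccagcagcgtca
Glp1r, second probe: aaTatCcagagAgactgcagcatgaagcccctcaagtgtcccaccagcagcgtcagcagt
Ffar1: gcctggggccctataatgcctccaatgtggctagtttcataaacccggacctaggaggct
On mouse build mm9 the file headers place the Glp1r probes at chr17:31073256-31073315 and chr17:31073261-31073320 on the plus strand, and the Ffar1 probe at chr7:31645724-31645783 on the minus strand. The Glp1r probes share 55 bases of target and differ at 3 of them, C3T, T6C and G12A from the first probe to the second, counted from 1 at the 5′ end of the overlap. Because of that overlap they are close to a repeated measurement of a single site and not 2 independent ones. Other probes lie at chr7:19742486-19742545 (Gipr), chr11:120400221-120400280 (Gcgr), chrX:46021196-46021255 (Gpr119), chr13:9875880-9875939 (Chrm3), chr19:54123363-54123422 (Adra2a) and chr15:78367445-78367504 (Sstr3). Those of Gprc5b are given below, and the position of the Galr1 probe is not reported here. No mm9 annotation was used here, so exon, intron or untranslated region was not assigned.

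The incretin receptor genes Glp1r and Gipr had the largest differences among the 9 receptors measured on both arrays, in male Tg over male WT and in female Tg over male Tg. Both were highest on male WT, lower on female Tg, lower again on male Tg E2 and lowest on male Tg. Glp1r, the GLP-1 receptor gene, had levels of 1.04 on male WT, -1.31 on male Tg, -0.55 on male Tg E2 and 0.45 on female Tg by its second probe, which represents the gene. The first probe gave -0.14, -2.29, -1.59 and -0.53 on the same arrays. Each neighbouring pair in this order was apart by the second probe, and by the first probe male WT and female Tg were not (0.39 ± 0.21). Male Tg was 2.35 ± 0.21 log2 below male WT by the second probe, which is 5.10-fold, and 2.16 ± 0.26 below it by the first.

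Gipr, the gene of the GIP receptor, had levels of 3.57 on male WT, 0.98 on male Tg, 2.03 on male Tg E2 and 2.92 on female Tg. All 4 levels were apart from their neighbours in the order. Male Tg was 6.03-fold below male WT (-2.59 ± 0.20 log2). Of 14382 genes measured on both arrays, meaning well above background on each, 68 other genes had a difference as low as that of Gipr and 94 as low as that of Glp1r. The 2 differences were also far below the median of those genes, which was -0.21.

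Male Tg E2 and female Tg lay between these ends to unequal degrees. Gipr was 2.08-fold higher on male Tg E2 than on male Tg (1.06 ± 0.20), which fell short of 2-fold under 3 other scalings (lowest 0.51), and 3.86-fold higher on female Tg (1.95 ± 0.20). Glp1r was 0.76 ± 0.22 higher on male Tg E2, short of 2-fold, a value that was 0.50 with normexp and the 75th percentile and 0.21, within the error, with pan-endocrine centring. It was 3.38-fold higher on female Tg (1.76 ± 0.21), and its first probe gave 0.70 and 1.77. Only 22 other genes of 14207 were as high on female Tg over male Tg as Gipr, and 42 as high as Glp1r. Male Tg E2 was still 2-fold below male WT in both, at -1.54 for Gipr and -1.59 for Glp1r. On female Tg they were 0.65 and 0.59 log2 below male WT, short of 2-fold.

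**Figure D1:**
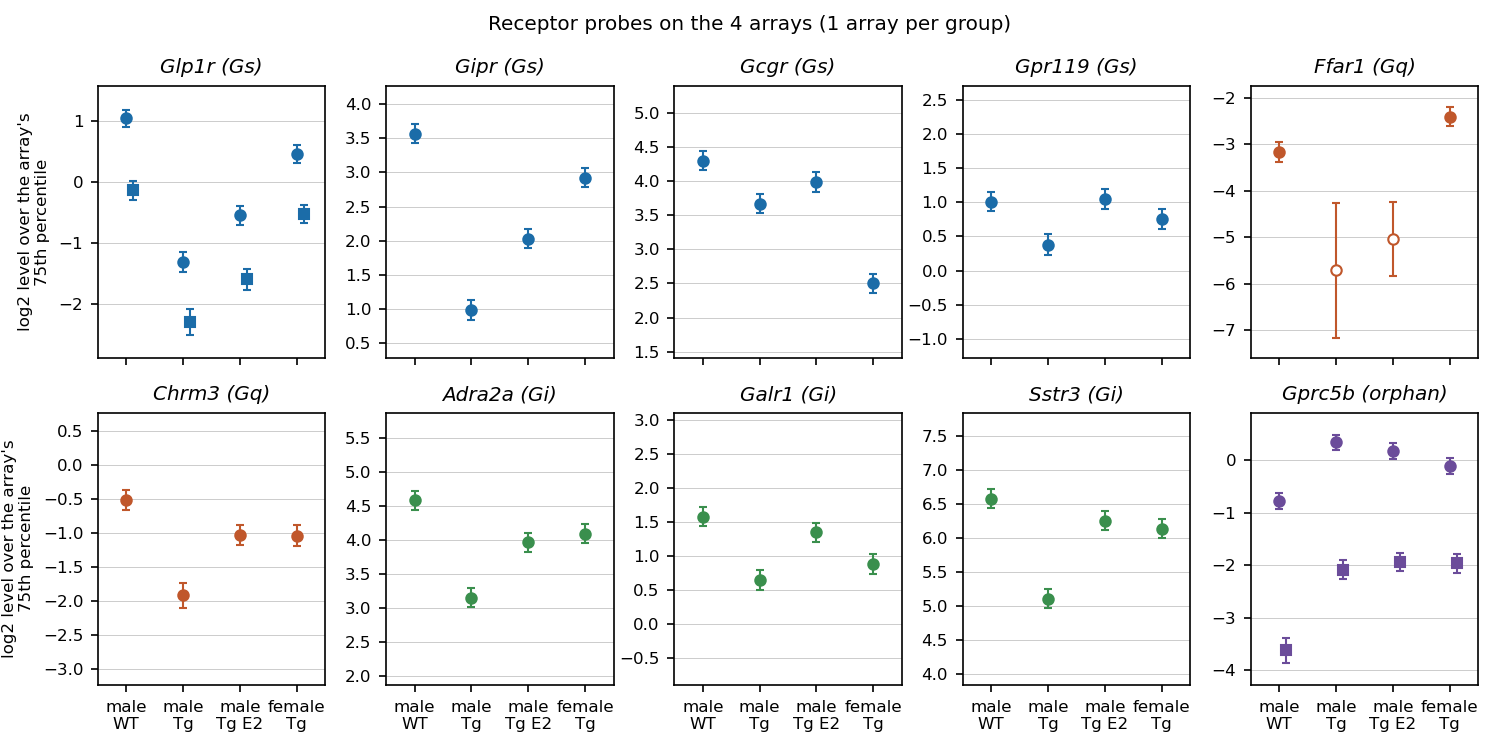
Level of each receptor probe on the 4 arrays, as log2 of processed intensity over the array's 75th percentile, with the scanner software's error as bars; squares are the other probe of Glp1r and Gprc5b, and open circles are not well above background. Each panel has its own range of the vertical axis; Glp1r and Gipr run from male WT through female Tg and male Tg E2 to male Tg, and Gcgr is lowest on female Tg (2.5).

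The other Gs-coupled receptors did not share that order. Gcgr encodes the glucagon receptor, through which glucagon acts on beta cells as well as on the liver. Its level was 4.30 on male WT, 3.67 on male Tg, 3.99 on male Tg E2 and 2.5 on female Tg, so the female array alone stood apart from its neighbour. Gcgr was 2.25-fold lower on female Tg than on male Tg (-1.17 ± 0.20) and 3.48-fold lower than on male WT (-1.80 ± 0.20). In the comparison of female Tg with male WT, 66 other genes of 14215 were as low. Between the male arrays Gcgr differed by at most 0.63 log2. No neighbours among them were apart, but male Tg and male WT were (-0.63 ± 0.20). Male Tg was below male WT except when arrays were centred on pan-endocrine genes (0.03). With 1 female array, whether this goes with sex or with that array was not tested.

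Gpr119 encodes a receptor for lipid amides that is found on beta cells and on gut endocrine cells. It had levels of 1.01 on male WT, 0.38 on male Tg, 1.05 on male Tg E2 and 0.76 on female Tg. In order of level no neighbours were apart, but the lowest and the highest array, male Tg and male Tg E2, were (0.67 ± 0.21, and 0.12 with pan-endocrine centring). Male Tg was 0.63 ± 0.21 below male WT, a difference that was 0.03 in the other direction with pan-endocrine centring.

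The Gq-coupled receptors are those for long-chain fatty acids, Ffar1 (also called GPR40), and for acetylcholine, Chrm3. Ffar1 had levels of -3.17 on male WT and -2.41 on female Tg, and was not well above background on male Tg (-5.71) or male Tg E2 (-5.04). Only bounds can be given against those arrays, from the bright array's level over the lowest level well above background on the dim one. Some probes that miss the software's call lie above that lowest level, so the bounds are approximate. By that bound Ffar1 was at least 1.29-fold lower on male Tg than on male WT, at least 1.49-fold lower on male Tg E2 than on male WT, and at least 2.19-fold higher on female Tg than on male Tg. Female Tg was 0.76 ± 0.30 above male WT with this scaling, the reverse of the order seen for Glp1r and Gipr. Before scaling the intensities were close and dim, 49.1 on female Tg and 40.6 on male WT. No other scaling was tried for that comparison.

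Chrm3, the muscarinic receptor gene through which parasympathetic nerves raise insulin secretion, had levels of -0.52 on male WT, -1.92 on male Tg, -1.03 on male Tg E2 and -1.04 on female Tg. Male Tg was apart from every other array, and male Tg E2 and female Tg were not apart. The difference of male Tg from male WT was 2.65-fold (-1.40 ± 0.24), and it fell short of 2-fold with pan-endocrine centring and with both normexp background corrections, where the lowest size was 0.67 log2. Male Tg E2 was 0.90 ± 0.24 and female Tg 0.88 ± 0.24 above male Tg, short of 2-fold except with median scaling (1.04 and 1.02). These values were 0.35 and 0.60 with pan-endocrine centring and 0.38 and 0.39 with normexp and the 75th percentile.

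The Gi-coupled receptor genes were lowest on male Tg as well. Adra2a encodes the alpha-2A adrenergic receptor, which lets adrenaline and noradrenaline stop insulin secretion. Its levels were 4.58 on male WT, 3.15 on male Tg, 3.96 on male Tg E2 and 4.09 on female Tg. Male Tg was 2.69-fold below male WT (-1.43 ± 0.20), which fell short of 2-fold with pan-endocrine centring (-0.77). Male Tg E2 and female Tg were 0.81 and 0.94 log2 above male Tg and not apart from each other, and the second value passed 2-fold with median scaling (1.08). With pan-endocrine centring they were 0.26 and 0.66.

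Sstr3, the gene of a somatostatin receptor that sits on primary cilia, had levels of 6.58 on male WT, 5.11 on male Tg, 6.26 on male Tg E2 and 6.14 on female Tg. Male Tg stood apart below the other arrays, and no other neighbours were apart, though male WT and female Tg, the highest and the third, were (0.45 ± 0.20). The difference of male Tg from male WT was 2.79-fold (-1.48 ± 0.20). Male Tg E2 was 2.22-fold (1.15 ± 0.20) and female Tg 2.04-fold (1.03 ± 0.20) above male Tg. All 3 differences kept their sign and fell short of 2-fold with pan-endocrine centring, at -0.82, 0.60 and 0.76.

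Galr1, which encodes a receptor for the neuropeptide galanin, had levels of 1.58 on male WT, 0.65 on male Tg, 1.35 on male Tg E2 and 0.89 on female Tg. The 2 higher levels and the 2 lower levels were apart, but not the members of each pair. Male Tg was 0.93 ± 0.21 below male WT, and past 2-fold only with median scaling (-1.26). With pan-endocrine centring that difference was -0.27. Male Tg E2 was 0.70 ± 0.21 above male Tg, and 0.15 above it with pan-endocrine centring. Female Tg was 0.25 ± 0.21 above male Tg, within the error, and 0.03 below it with pan-endocrine centring.

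Gprc5b, an orphan receptor gene of the class C family, ran the other way. Its brighter probe gave -0.78 on male WT, 0.34 on male Tg, 0.18 on male Tg E2 and -0.11 on female Tg. The dimmer probe gave -3.62, -2.08, -1.94 and -1.96. Its male WT value lay near the lowest level well above background on that array (-4.26), so its differences from male WT depend on a dim value. By both probes male WT was apart below the other arrays, and by neither were the transgenic neighbours apart. Male Tg and female Tg, which are not neighbours by the brighter probe, were apart by it (0.44 ± 0.21). Male Tg was 2.16-fold above male WT by the brighter probe (1.11 ± 0.21) and 1.54 ± 0.30 log2 above it by the dimmer one. The first value fell short of 2-fold with median scaling and with both normexp corrections, with 0.78 as the lowest value. The probes parted in sign against male Tg, where male Tg E2 was at -0.16 and 0.14 and female Tg at -0.44 and 0.11.

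The probes of Gprc5b start 1343 bases apart, at chr7:126115825-126115884 and chr7:126117168-126117227 on mm9, so they read separate places of the transcript. A stretch of the dimmer probe, at chr7:126117169-126117198 on the minus strand, is shown because it holds AATAAA, the usual polyadenylation signal, in capitals.
Gprc5b, dimmer probe: gctgagtgttttAATAAAtctgatatttct
The letters AATAAA occur, on the strand as printed in the array's design, in 2 of the 12 receptor probes, those of Gprc5b and Sstr3, and in 10.1% of the 55681 probes. A match is a description of the letters only.

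Counted together, 9 of the 10 receptors were measured on both the male WT and the male Tg array. On male Tg 5 of 9 were 2-fold lower (Glp1r, Gipr, Chrm3, Adra2a and Sstr3) against 8.68% of all measured genes, and 1 of 9 was 2-fold higher (Gprc5b) against 15.6%. Their median was -1.40, where that of all measured genes was -0.21, and 8 of 9 were below 0 against 60.8% of genes, of which Gcgr and Gpr119 crossed 0 with pan-endocrine centring. For male Tg E2 over male Tg, 2 of 9 were 2-fold higher (Gipr and Sstr3) against 2.55% of genes and 0 of 9 lower against 8.0%, with a median of 0.76 against 0.12. With pan-endocrine centring, 2 were lower in male Tg over male WT and 0 higher in male Tg E2 over male Tg, with medians of -0.75 and 0.21. For female Tg over male Tg, 3 of 9 were 2-fold higher (Glp1r, Gipr and Sstr3) against 3.51% and 1 of 9 lower (Gcgr) against 8.57%, with a median of 0.88 against 0.10. These comparisons share the male Tg array, so a departure of that array enters all 3 of them.

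Against male WT, the male Tg E2 array had 2 of 9 receptors 2-fold lower (Glp1r and Gipr) against 2.64% of genes and 0 of 9 higher against 8.82%, with a median of -0.33. Female Tg had 1 of 10 lower (Gcgr) against 3.47% and 0 of 10 higher against 7.63%, with a median of -0.51. The male Tg array gave the lowest level for 7 of the 9 receptors measured on all 4 arrays, the exceptions being Gcgr and Gprc5b, while it did so for 46.3% of 13888 genes. Male WT gave the highest level for 7 of 9, against 43.6%. Both held for 6 of 9 receptors, against 31.8% of genes, so these orders were common on the arrays.

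**Figure D2:**
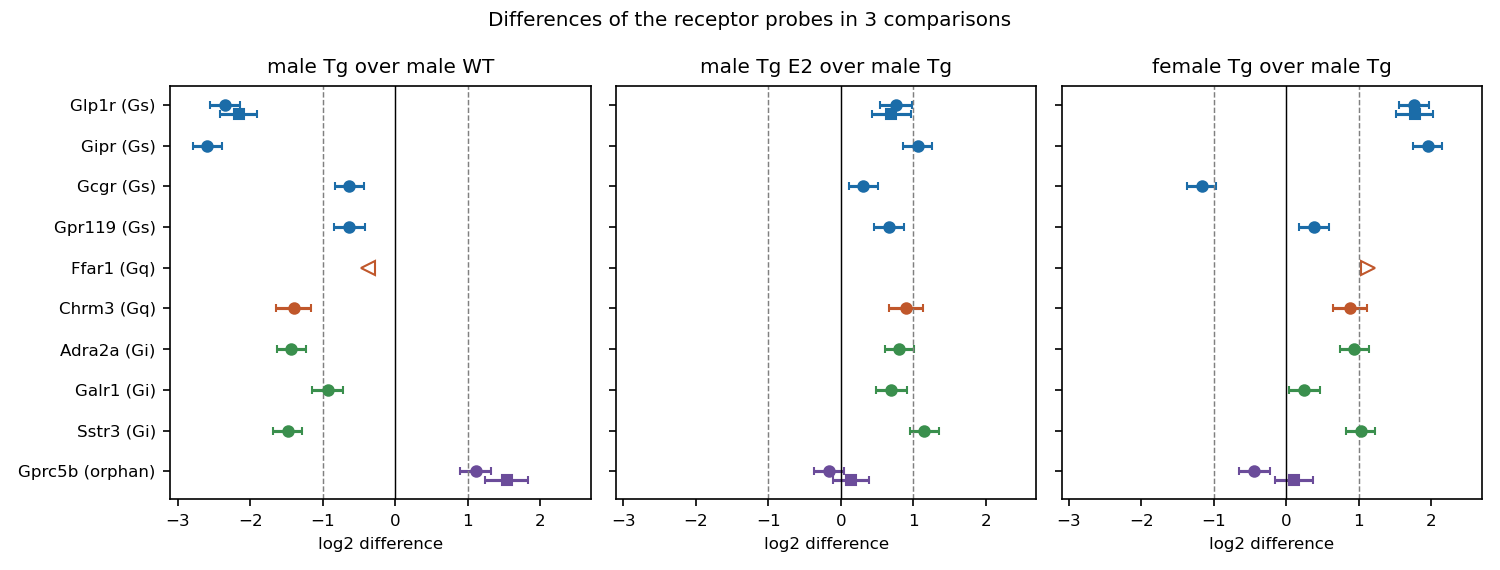
Log2 difference of each receptor probe in 3 comparisons, with the scanner software's error as bars; dashed lines mark 2-fold, squares are the other probe of Glp1r and Gprc5b, and open triangles are bounds for Ffar1. Of the measured receptors Gipr and Glp1r lie farthest from 0 in male Tg over male WT (-2.59 and -2.35) and in female Tg over male Tg (1.95 and 1.76), and Gcgr alone is 2-fold lower in the last panel.

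**Figure D3:**
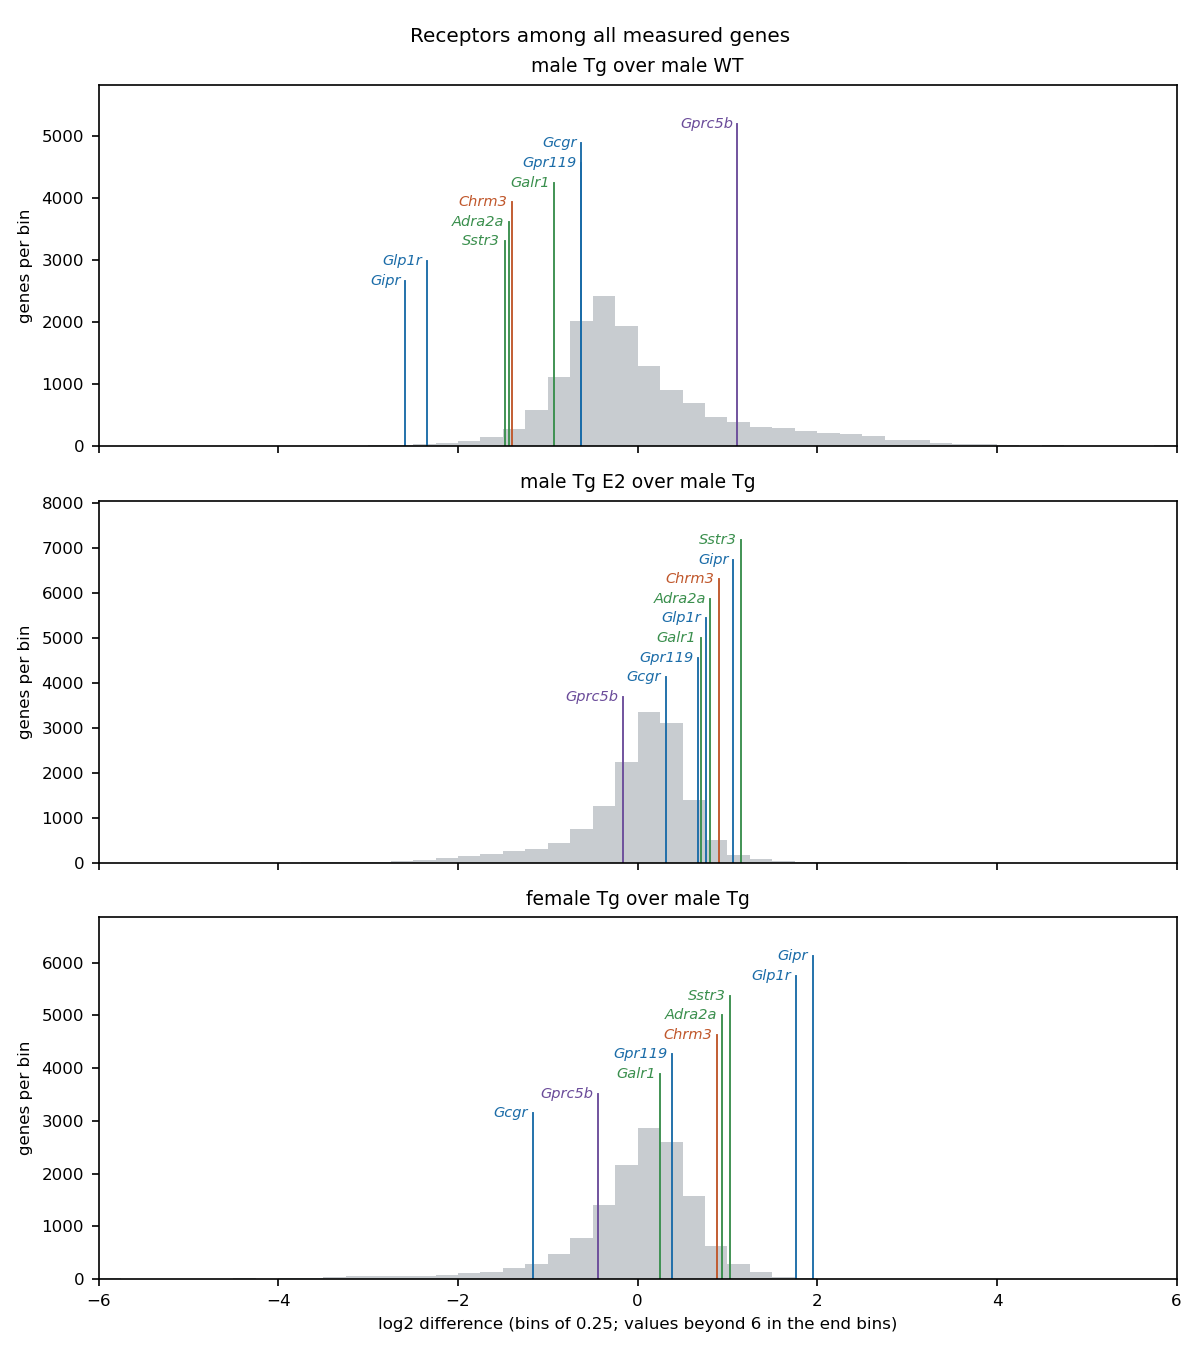
Histogram of the log2 differences of all measured genes in bins of 0.25, with a vertical line at each measured receptor; line height has no meaning. Gipr and Glp1r stand in the lower tail for male Tg over male WT and in the upper tail for female Tg over male Tg, whereas Gpr119 lies inside the bulk of genes in both.

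Genes whose centred profile over the 4 arrays came closest to that of a receptor were found for the 7 receptors that spanned at least 1 log2. The measure is the root mean square of the log2 differences over 4 points, and it describes these arrays only. Nearest to Gipr among 13887 genes were Maob (0.076), a monoamine oxidase gene, and Glp1r itself (0.112). Nearest to Glp1r were Aars (0.076), an alanyl-tRNA synthetase gene, and Maob (0.089). Only 17 genes lay within 0.2 of Glp1r, 11 of Gipr and 6 of Gcgr, for which the nearest were Fgf6 (0.144) and Prr15l (0.176). For Chrm3, Adra2a and Sstr3 the counts were larger, with 769, 757 and 348 genes within 0.2. Profiles were not scaled to a common size, so a count depends on the span as well as on the shape. The span was 2.35 log2 for Glp1r, 2.59 for Gipr and 1.80 for Gcgr. It was 1.40 for Chrm3, 1.43 for Adra2a, 1.48 for Sstr3 and 1.11 for Gprc5b. Their nearest genes were Sntg1 and Pofut2 for Chrm3, Fgfbp3 and Grk3 for Adra2a, and Pxylp1 and Rflna for Sstr3. Gprc5b had 369 genes within 0.2, with Gpc1 and Card10 nearest. Grk3 encodes a kinase that phosphorylates activated receptors.

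Several of the receptors' ligands are made in the islet, and their genes were higher on male Tg than on male WT. Galanin's gene Gal had levels of 1.44 on male WT, 5.34 on male Tg, 3.27 on male Tg E2 and 1.61 on female Tg. It was thus 14.9-fold higher on male Tg than on male WT (3.90 ± 0.20), while its receptor gene Galr1 was at -0.93. Male Tg E2 was 4.20-fold and female Tg 13.3-fold below male Tg in Gal. The somatostatin gene Sst had levels of 8.80, 10.05, 9.70 and 9.76, so it was above male WT by 1.25 log2 on male Tg, by 0.90 on male Tg E2 and by 0.96 on female Tg. Its receptor gene Sstr3 was below male WT on the same arrays, at -1.48, -0.33 and -0.45.

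Gip, whose peptide is the ligand of the GIP receptor, had levels of -0.66 on male WT, 0.69 on male Tg, -1.47 on male Tg E2 and -0.93 on female Tg. It was 1.35 log2 above male WT on male Tg, the array where Gipr was lowest, and 4.47-fold and 3.08-fold lower than that on male Tg E2 and female Tg. Gcg encodes both glucagon and GLP-1, the ligands of the Gcgr and Glp1r products, and had levels of 9.16, 9.92, 9.45 and 9.46. Its 0.76 difference between male Tg and male WT was under 2-fold.

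**Figure D4:**
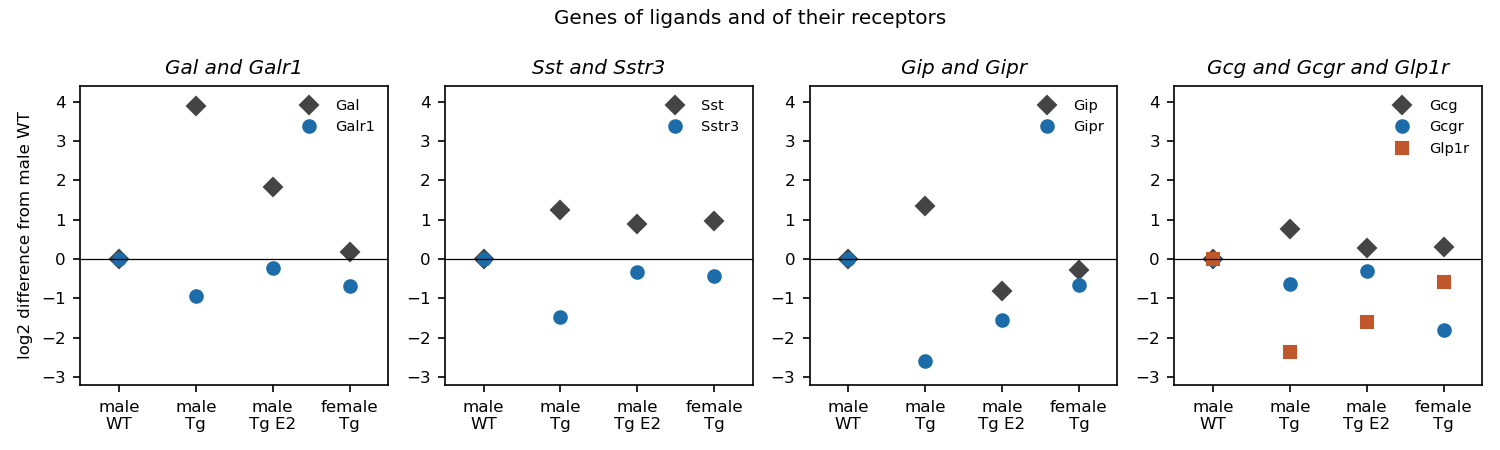
Log2 difference from the male WT array for 4 ligand genes (diamonds) and the genes of their receptors (circles and squares), 1 array per point and no error bars. On male Tg each ligand gene is above 0 (Gal 3.90, Sst 1.25, Gip 1.35, Gcg 0.76) and each receptor gene is below it with this scaling, while Gcgr crosses 0 with pan-endocrine centring.

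Of 21 genes of receptor ligands and receptor activity-modifying proteins, 20 were measured in male Tg over male WT, with 10 2-fold higher, 1 lower and a median of 1.0. The lower one was Ucn3 (-4.39), a beta cell peptide of the corticotropin-releasing factor family, and the highest besides Gal were Cck (4.09) and Vip (3.91), genes of gut and nerve peptides. Male Tg E2 over male Tg had 5 lower and 1 higher of 21, and female Tg over male Tg the same counts of 19.

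The median of other islet receptors lay on the other side of 0. Of 81 listed, 47 were measured in male Tg over male WT, with 8 2-fold lower, 15 higher and a median of 0.45. Of all measured genes, 8.68% were lower and 15.6% higher. The largest differences were those of the cholecystokinin receptor gene Cckar (5.72) and the prostaglandin E receptor genes Ptger3 (4.98) and Ptger4 (2.76), all higher, and of the orphan receptor gene Gpr158 (-2.84). On male WT Ptger3 and Ptger4 were both at -3.74, near the lowest level well above background there (-4.26). The sizes of their differences thus depend on dim values. Cckar, a receptor of acinar cells, was at -2.82 on male WT, 2.89 on male Tg, 2.16 on male Tg E2 and -1.80 on female Tg. On male Tg E2 over male Tg, 3 of 53 were higher, namely the ADP receptor gene P2ry1 (1.80), Gpr158 (1.53) and Sstr4 (1.27), and 3 lower. The shares of all measured genes were 2.55% and 8.0%. On female Tg over male Tg, 6 of 45 were higher and 8 lower, with Gper1, an estrogen-binding receptor gene, at -1.76 and the VIP receptor gene Vipr2 at -1.61. There the shares of all measured genes were 3.51% and 8.57%.

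Close relatives of the described receptors, chosen after their values were seen, went both ways in male Tg over male WT. In the somatostatin receptor family, Sstr4 was at -2.16, Sstr5 at 0.02 and Sstr1, a delta cell marker, at 1.45. Galr3 was at -2.14, further from 0 than Galr1. The fatty acid receptor genes Ffar2 and Ffar3 were at -1.01 and -1.15, and Ffar4 was at 1.47. In the family of Gprc5b, Gprc5a was at 1.47, Gprc5d at 1.17 and Gprc5c at -0.59.

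Genes that act downstream of the receptors had medians near 0, where that of all genes was -0.21 and where the zero itself depends on how arrays are centred. Of all measured genes, 8.68% were 2-fold lower and 15.6% higher in male Tg over male WT. G protein subunit genes had 3 of 26 2-fold lower and 4 higher in male Tg over male WT, with a median of 0.00, led by Gng3 (2.56) and Gna14 (2.43). Genes of cAMP formation, breakdown and effectors had 3 of 30 lower and 7 higher, with a median of -0.01. They included the adenylyl cyclase gene Adcy7 (2.56) and the phosphodiesterase genes Pde2a (2.53) and Pde8a (-1.54). Phospholipase C and calcium release genes had 3 of 19 in each direction, among them Plcd1 (1.71) and the kinase genes Prkd1 (-1.55) and Prkcb (-1.52). Receptor regulators had 5 of 27 lower and 6 higher, led by Rgs14 (2.71) and Rgs8 (2.54), which speed the shutting off of G proteins, and Arrb1 (2.33), an arrestin gene. On male WT Gna14 (-3.21), Rgs14 (-3.34) and Rgs8 (-3.61) were near the lowest level well above background (-4.26). The sizes of their differences depend on those dim values.

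The same lists differed less between the transgenic arrays. Of all measured genes, 2.55% were 2-fold higher and 8.0% lower in male Tg E2 over male Tg. In female Tg over male Tg the shares were 3.51% and 8.57%. In male Tg E2 over male Tg the cAMP list had 2 of 32 higher, the adenylyl cyclase genes Adcy1 (1.47) and Adcy2 (1.25), and 0 lower. In the phospholipase C list Prkd1 was 1.69 higher and Plcb3 was at -1.02. Of 27 regulators 1 was higher, Rgs2 (1.5), a regulator of Gq signalling, and 3 were lower, Rgs10 (-1.55), Rgs14 (-1.52) and Arrb1 (-1.05). G protein subunit genes had 1 of 25 lower, Gng11 (-2.25), and 1 higher, Gna15 (1.82). In female Tg over male Tg the cAMP list had 1 of 30 higher, the kinase subunit gene Prkar1b (1.0). Among the regulators 1 of 27 was higher, Gpsm1 (1.51), and 1 lower, Rgs8 (-1.59). G protein subunit genes had 3 of 25 lower, Gna14 (-2.09), Gng11 (-1.77) and Gng3 (-1.19), and 2 higher, Gng4 (1.39) and Gnaz (1.17). The phospholipase C list had 3 of 18 lower, Plcd1 (-1.65), Plcb3 (-1.24) and Prkcd (-1.0).

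Markers of the islet's cell types differed beside the receptors. In islets that hold several cell types, fewer cells of a type and less RNA per cell cannot be told apart. Of 16 beta cell markers, 10 were 2-fold lower and 1 higher (Npy) in male Tg over male WT, with a median of -1.72, and they spread widely, with Gad1 at -5.80 and G6pc2 at -2.68. The insulin genes lay on the other side, Ins1 at 0.67 and Ins2 at 0.73. The summed level of the 16, in units of the 75th percentile, was 2850 on male WT, 3420 on male Tg, 2730 on male Tg E2 and 2620 on female Tg, and the insulin genes had the highest mean levels of the list. Pan-endocrine genes, shared by all islet hormone cells, had 5 of 24 lower and 1 higher with a median of -0.66. Alpha cell markers had 5 of 10 and delta cell markers 5 of 6 higher, with medians of 0.96 and 1.45, and Loxl4 was the only alpha cell marker not well above background on any array.

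In the transgenic comparisons the beta cell markers again lay near the receptors. For male Tg E2 over male Tg their median was 0.60, with 6 of 16 2-fold higher, and for female Tg over male Tg it was 0.95, with 8 of 16 higher and 1 lower. Pan-endocrine medians were 0.47 and 0.46. The part of these cell markers in the receptors' differences was not tested.

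Several marker lists of other cells differed more than the receptors did. The summed level of 19 acinar markers was 1070 on male WT, 15600 on male Tg, 9320 on male Tg E2 and 1170 on female Tg, and 18 of 19 were 2-fold higher on male Tg than on male WT (median 4.51). Matrix markers had 10 of 11 higher (median 3.11), lymphocyte markers 8 of 10 (3.29) and erythrocyte markers 5 of 5 (2.26). For male Tg E2 over male Tg, 5 of 19 acinar, 7 of 9 lymphocyte and 5 of 5 erythrocyte markers were lower, and for female Tg over male Tg 18 of 19 acinar (median -4.38), 5 of 5 erythrocyte (-1.60), 7 of 12 matrix (-1.07) and 4 of 7 ductal markers (-1.06) were. Acinar markers were nearly alike on female Tg and male WT, with a median difference of 0.15 and 0 of 19 at 2-fold, and there Glp1r and Gipr were 0.59 and 0.65 log2 lower on female Tg. On male Tg E2, with acinar markers at a median of 3.74 above male WT, they were 1.59 and 1.54 lower. Adra2a was likewise less far below male WT on female Tg (-0.49) than on male Tg E2 (-0.62). Gcgr and Galr1 went the other way, further below male WT on female Tg (-1.80 and -0.68) than on male Tg E2 (-0.32 and -0.22). Gpr119 (-0.25 on female Tg and 0.04 on male Tg E2), Sstr3 (-0.45 and -0.33) and, barely, Chrm3 (-0.53 and -0.51) were also lower on female Tg. Gprc5b was above male WT on both (0.67 and 0.95). The median difference of the measured receptors from male WT was -0.51 on female Tg and -0.33 on male Tg E2. Ductal markers had 4 of 8 2-fold higher in male Tg over male WT, macrophage markers 6 of 10, endothelial markers 2 of 10 and Schwann and nerve markers 2 of 6. The share of all measured genes was 15.6%. The part of acinar or blood cell RNA in the receptors' values was not tested.

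**Figure D5:**
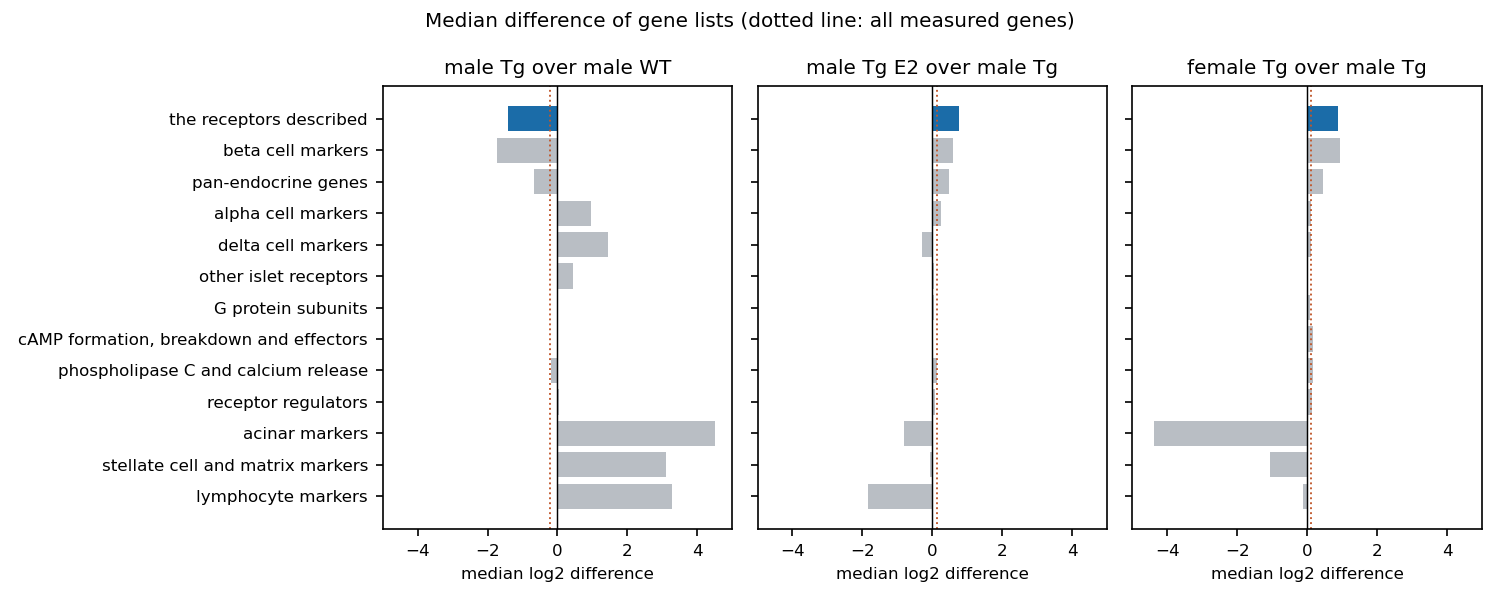
Median log2 difference of the 9 measured receptors (top bar) and of 12 gene lists in 3 comparisons; the dotted line is the median of all measured genes. The receptors (-1.40, 0.76 and 0.88) lie near the beta cell markers (-1.72, 0.60 and 0.95), lists of downstream signalling genes lie near 0, and acinar markers reach 4.51 and -4.38.

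Promoter sequences were looked at because E2 acts through nuclear receptors that bind DNA at the estrogen response element. From a RefSeq table of build GRCm38.p6, 9 windows for 8 of the receptors were searched, 2 of them for Sstr3. Each ran from 250 bases before to 50 after a transcription start. Galr1 was left out of this search. The full estrogen response element, searched on both strands, occurred in 0 of 9 windows and in 0.07% of 32851 windows of that length. Its core, GGTCA on either strand, occurred in 3 of 9, those of Glp1r, Ffar1 and Sstr3, and in 40.5% of all windows. The 2 stretches that hold it in Glp1r and Sstr3 are printed with the core in capitals, as it reads on the gene's strand.
Glp1r, 60 bases that end just before the start site: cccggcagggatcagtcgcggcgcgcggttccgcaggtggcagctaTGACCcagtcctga
Sstr3, 60 bases upstream of a start site: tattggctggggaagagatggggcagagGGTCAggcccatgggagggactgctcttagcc
They lie at chr17:30901807-30901866 on the plus strand and chr15:78541438-78541497 on the minus strand of GRCm38.p6, and the core begins at position -14 of Glp1r and -63 of Sstr3 relative to the start. Gipr, whose difference between male Tg E2 and male Tg was past 2-fold, has no window in that table. Such matches describe letters and not binding, and the share among the receptor windows searched was no higher than that of all windows.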

How the data were processed

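Total RNA of hand-picked islets was labelled with Cy3 and hybridised to 1 array per group, per the labels' protocols. The deposited scanner files hold the processed, background-subtracted intensity per spot on a linear scale, from Feature Extraction 10.7.1.1 per the file headers, whereas the submitters' processing notes name 9.5.1.1. The authors' deposited value table holds quantile-normalized intensity and served as an alternative. Outlier-flagged spots (103 to 125 per array) and controls were left out, spots of a probe were averaged on the log2 scale, and the array's 75th percentile was subtracted. No spot was saturated. Probes were named through a RefSeq table of GRCm38.p6, 27235 by accession and 4146 by symbol or synonym, and 24300 kept the file's name. Each gene takes the value of its brightest probe by mean level, and is measured where well above background on both arrays. Probes spotted 10 times had a median SD of 0.0656 to 0.0752 log2 within an array.

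The receptors and lists were chosen with earlier results of these data known. Named are all receptors, up to 4 genes of a list per comparison that differ most and by 2-fold or more, the top 2 marker genes per cell type by mean level, and the 2 genes nearest in profile to a receptor. The rule's genes are described in part, and Gad1, G6pc2, Npy, Loxl4 and the receptor relatives were added after values were seen. The pipeline was tested on simulated data. Alternatives were other scalings, normexp background correction with an offset of 50 (limma 3.58.1 in R 4.3.3), the deposited value table, another probe rule, no background filter and a 1.5-fold threshold. Python 3.11.15, numpy 2.4.6 and pandas 2.3.3 did the rest.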

Additional observations from a re-analysis of the deposited data

How the results depend on the processing

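Of 96 alternative values for counts and medians over the receptors 19 moved beyond their limits, and of 270 for single receptors 53 did. Some alternatives could not move a single receptor, so these tallies overstate how much was varied. Dropping the background filter leaves a measured receptor unchanged, and averaging probes leaves a receptor with 1 probe unchanged. Keeping flagged spots gave the same values for the receptors, and the deposited table is itself quantile-normalized. Glp1r and Gipr in male Tg over male WT and in female Tg over male Tg, and Gcgr in the latter, kept their side of 2-fold under all 10 alternatives, with ranges of -2.68 to -1.69, -2.93 to -1.93, 1.30 to 1.90, 1.67 to 2.09 and -1.45 to -1.03. In male Tg over male WT, the count of lower receptors (5) became 2 with pan-endocrine centring and 8 at 1.5-fold, the count of higher ones (1) became 0 with median scaling and with both normexp settings, and the median (-1.40) became -1.74 with median scaling, -0.75 with pan-endocrine centring, -0.84 with normexp and the 75th percentile and -0.90 with normexp and quantile normalization. In male Tg E2 over male Tg, the count of higher receptors (2) became 1 with the percentile of probes above background on all arrays, 1 with normexp and quantile normalization, 0 with pan-endocrine centring and 7 at 1.5-fold, and the median (0.76) became 0.21 with pan-endocrine centring. In female Tg over male Tg, the count of higher receptors (3) became 5 with median scaling and 5 at 1.5-fold, and the median (0.88) became 0.60 with pan-endocrine centring, 0.39 with normexp and the 75th percentile and 0.54 with normexp and quantile normalization. Centring sets the zero of all genes. Of genes at 2-fold in male Tg over male WT, 64.3% were higher, against 37.5% with median scaling, 76.7% with the percentile of probes above background on all arrays and 93.3% with pan-endocrine centring. The share was 24.1% in male Tg E2 over male Tg (38.2% with median scaling, 3.54% with pan-endocrine centring) and 29.1% in female Tg over male Tg (43.6% and 9.52%). The cause of the other moves was not tested. Signal over background limits Ffar1, for which no difference between male Tg and male Tg E2 can be given. No paired analysis was possible because each group has 1 array.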

Other observations

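The 3 receptors nearest the 2-fold line in male Tg E2 over male Tg were Gipr (1.06), Sstr3 (1.15) and Chrm3 (0.90), with errors of 0.20 to 0.24, so which of them counts as 2-fold higher lies within the measurement error. In that comparison 237 of 14616 genes were as high as Sstr3 and 308 as high as Gipr.

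Among receptor genes outside the 10, chosen after values were seen, Gpr158 had levels of 2.58 on male WT, -0.26 on male Tg, 1.28 on male Tg E2 and 1.33 on female Tg, and P2ry1, in the same order of arrays, 3.83, 2.09, 3.88 and 2.79. P2ry1 was thus at the male WT level on male Tg E2 (0.05) and 1.04 log2 below it on female Tg. Rgs2, whose product limits Gq signalling, did likewise, with levels of 7.80, 6.32, 7.83 and 6.47. Adora1 and Adora2b, genes of adenosine receptors, were both at -1.42 in male Tg over male WT and lay below male WT on all 3 transgenic arrays.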
